A study of Mus musculus with 4 samples.

Results

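Type I interferon response genes are described here across the cell classes of mouse hippocampus and sensory cortex. The list holds 39 genes and was applied by symbol to 4 single-cell RNA libraries. Of these, 37 have a row among the 32285 genes of the matrices, and Mx1 and Mx2 are not analysed here. By role the list has 1 ligand (Ifnb1), 3 transcription factors (Irf7, Irf9, Stat2), 3 sensors of viral RNA and their activators (Ifih1, Dhx58, Trim25), 1 sensor of other nucleic acids (Zbp1), 2 genes of other secreted proteins (Cxcl10, Lgals3bp), the ubiquitin-like modifier Isg15, 7 regulators and 21 antiviral effectors. The libraries are hippocampus DOCA-salt, cortex DOCA-salt, hippocampus sham and cortex sham, all from wild-type mice. DOCA-salt is a model of hypertension in which deoxycorticosterone acetate, a mineralocorticoid, is given with salt; the labels state neither doses, times nor ages. Per the labels each group had 3 mice; pooling of their cells is not described. Each group is 1 library, so every difference below is between 2 libraries and carries no test. Groups follow the titles. A separate label for treatment gives DOCA-salt for both hippocampus libraries and sham for both cortex libraries, so it contradicts the titles of 2 libraries, cortex DOCA-salt and hippocampus sham, and each ratio below rests on the titles.

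Type I interferons bind a receptor found on nearly all cells, which switches on transcription factors such as STAT2 and IRF9. These factors bind a promoter element, the interferon-stimulated response element, and start the transcription of a large set of antiviral genes. Ifnb1 itself lies upstream of this loop: it is switched on by IRF3, IRF7 and NF-kB after a cell senses foreign or misplaced nucleic acid. In the brain, microglia are known as a source of interferon beta, and endothelial cells and microglia respond to it strongly. Cxcl10 and several guanylate-binding proteins also respond to interferon gamma or to NF-kB, so the list is not specific to a single stimulus.

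Upstream sequences are shown for the ligand and for 4 response genes that carry the results below, from RefSeq on GRCm38.p6. Each is the 250 bases before the annotated start of transcription, on the strand of the gene. Capitals mark GAAA followed after any 2 bases by another GAAA, the letters of a response element, or GGGA followed after any 2 bases by TTCC, those of an NF-kB site, on either strand, and overlapping matches run together. The windows are chr4:88522795-88523044 for Ifnb1, chr5:92348890-92349139 for Cxcl10, chr4:156200819-156201068 for Isg15, chr12:26456453-26456702 for Rsad2 and chr8:71537473-71537722 for Bst2, all on the minus strand.
Ifnb1: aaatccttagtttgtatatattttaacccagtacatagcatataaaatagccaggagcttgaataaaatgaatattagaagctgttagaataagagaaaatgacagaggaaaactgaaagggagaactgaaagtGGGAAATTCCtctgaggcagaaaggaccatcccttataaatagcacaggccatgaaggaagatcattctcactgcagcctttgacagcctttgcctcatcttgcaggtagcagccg
Cxcl10: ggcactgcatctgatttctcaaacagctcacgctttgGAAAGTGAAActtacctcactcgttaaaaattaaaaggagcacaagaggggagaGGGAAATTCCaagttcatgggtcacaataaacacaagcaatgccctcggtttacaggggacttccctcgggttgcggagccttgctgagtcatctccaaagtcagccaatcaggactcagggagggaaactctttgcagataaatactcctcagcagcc
Isg15: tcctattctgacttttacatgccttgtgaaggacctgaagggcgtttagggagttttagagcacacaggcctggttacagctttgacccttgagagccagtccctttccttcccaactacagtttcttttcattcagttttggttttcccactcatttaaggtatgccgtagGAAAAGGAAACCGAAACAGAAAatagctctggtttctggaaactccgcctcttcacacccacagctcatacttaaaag
Rsad2: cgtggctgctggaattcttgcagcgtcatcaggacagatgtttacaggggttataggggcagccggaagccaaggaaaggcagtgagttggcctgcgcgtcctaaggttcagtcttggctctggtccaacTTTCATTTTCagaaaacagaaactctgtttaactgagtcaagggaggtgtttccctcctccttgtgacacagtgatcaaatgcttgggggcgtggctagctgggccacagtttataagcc
Bst2: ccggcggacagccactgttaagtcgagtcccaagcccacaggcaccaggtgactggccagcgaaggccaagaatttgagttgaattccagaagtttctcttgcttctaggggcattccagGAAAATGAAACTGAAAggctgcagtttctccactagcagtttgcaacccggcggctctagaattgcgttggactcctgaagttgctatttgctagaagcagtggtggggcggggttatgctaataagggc
The Ifnb1 window matched the NF-kB letters only, the Cxcl10 window matched both motifs, and the windows of Isg15, Rsad2 and Bst2 matched the response-element letters only. Windows of 300 bases, which include 50 after the start, were found for 29 members. Of these, 15 had the response-element letters, against 3.99% of the 27025 genes with a window, and 6 had the NF-kB letters, against 1.63%. A match is a run of letters and not a measured site. Several members are neighbours: Ifit1, Ifit2, Ifit3 and Ifit3b lie within 99.3 kb of chromosome 19 (34550694 to 34650009, GRCm38), and Rsad2 and Cmpk2 lie head to head within 37.1 kb of chromosome 12.

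Cells were assigned to classes one by one from marker genes that do not include the list. The 4 libraries held 10349 to 10761 cells after filtering, with medians of 5538 to 5850 unique molecular identifiers (UMIs, a count of captured RNA molecules) per cell. Of 42522 cells, 36679 received a class and 13.7% stayed unnamed. The clusters of a separate grouping gave the same class for 99.4% of the 35003 cells named both ways, and 3213 cells lay within 0.1 of the margin that divides classes. Levels are UMIs of a gene per 1000000 UMIs of all cells of the class and library (CPM), and bracketed ranges are 95% intervals of counting error only. The libraries differed in free RNA: Ttr, a transcript of choroid plexus, stood between 22.9 and 36.4 CPM in the main classes of the hippocampus DOCA-salt library, against 3089 to 4361 CPM in hippocampus sham. The hippocampus sham library was the only library with more than 2 choroid-plexus-like cells, at 348, in which the list summed to 1475 CPM. Ttr in its other classes was 1.13% to 1.60% of that in the choroid-plexus-like cells. S100a8 of neutrophils stood between 37.6 and 63.5 CPM in the same classes of the hippocampus DOCA-salt library, against 0.838 to 1.94 CPM in hippocampus sham. The part of free RNA in the results was not tested beyond the values given beside them, and 94 to 105 barcodes were shared by each pair of libraries.

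The list was expressed most in vessels and myeloid cells. Endothelial-like cells had summed levels of 3596 CPM (3539 to 3653) in hippocampus DOCA-salt, 4789 (4716 to 4863) in hippocampus sham, 3170 (3103 to 3237) in cortex DOCA-salt and 4459 (4383 to 4535) in cortex sham. Microglia-like cells had 2472 CPM (2447 to 2497), 3864 (3829 to 3900), 2203 (2178 to 2228) and 2566 (2540 to 2592), in the same order of libraries. Pericyte-like cells ranged from 2114 to 3157 CPM and border-macrophage-like cells from 2589 to 3788 CPM. Within a library, the intervals of endothelial-like and microglia-like cells never met, with the endothelial-like level above. Astrocyte-like cells, at 416 to 460 CPM, and oligodendrocyte-like cells, at 360 to 417 CPM, stood far below these. Some smaller classes were as low or lower, such as Cajal-Retzius-like cells at 286 to 396 CPM. The sums were lower in the DOCA-salt library of both tissues in endothelial-like, pericyte-like and microglia-like cells, while border-macrophage-like cells went opposite ways in hippocampus and cortex.

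**Figure D1:**
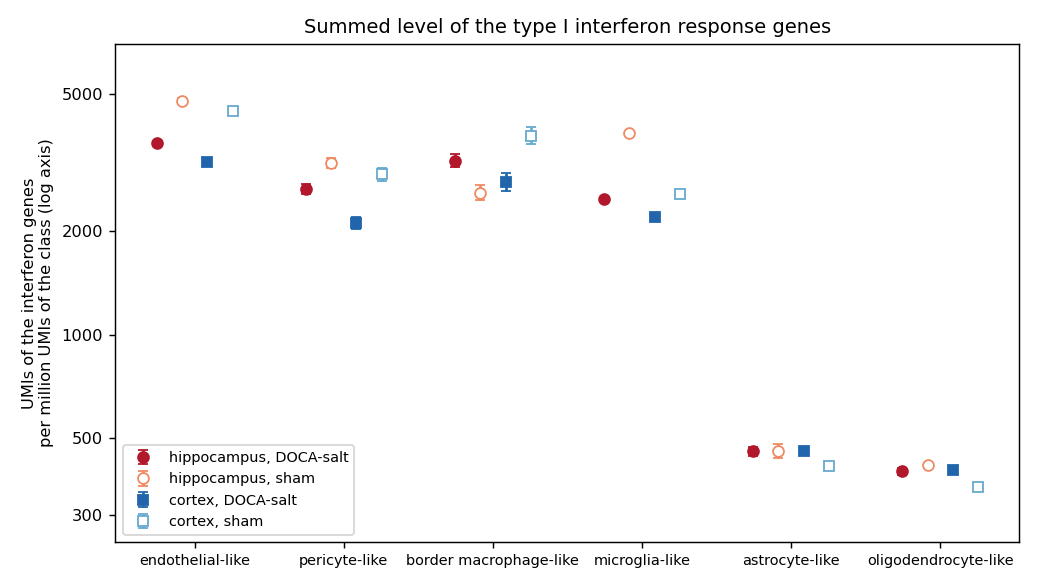
Summed level of the 37 measured interferon response genes (CPM, UMIs scaled to the total of the class, log axis) in 6 cell classes, with DOCA-salt libraries as filled and sham libraries as open symbols; bars are 95% intervals of counting error. Endothelial-like sums lie at 3596 and 3170 CPM in the DOCA-salt libraries, against 4789 and 4459 CPM in the sham libraries, and the 2 glial classes on the right lie below 500 CPM in all 4.

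Different genes made up the sum in each class. UMIs at the 3′ end are not divided by transcript length, so the shares below are shares of molecules counted. Ifitm3, which encodes a membrane protein that blocks the entry of viruses, held 35.8% to 44.5% of the list's UMIs in endothelial-like cells. Cxcl10, a chemokine that attracts T cells, held 24.6% to 31.3% in microglia-like cells, with Isg15 at 12.1% to 17.7%. In astrocyte-like cells Ifi27, a mitochondrial protein gene, held 21.6% to 26.9% and Lgals3bp, encoding a secreted binding partner of galectins, 11.0% to 17.6%. Ifi27 (38.3% to 42.1%) and Xaf1 (22.4% to 27.4%), a gene that promotes cell death, made up most of the list's UMIs in oligodendrocyte-like cells.

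The ligand was found mainly in microglia. Ifnb1 (ENSMUSG00000048806, chromosome 4, 88522025 to 88522774 on the minus strand) had 5716 UMIs over all cells in hippocampus DOCA-salt, against 7833 in hippocampus sham, and 4531 in cortex DOCA-salt, against 3583 in cortex sham. Microglia-like cells held 81.0% and 76.4% of these in hippocampus and 82.7% and 84.3% in cortex, in the same order. Its level in microglia-like cells was 307 CPM in hippocampus DOCA-salt and 505 in hippocampus sham, a ratio of 0.609 (0.586 to 0.633). In cortex it was 274 CPM in DOCA-salt and 209 in sham, a ratio of 1.31 (1.25 to 1.38). The DOCA-salt library was thus below sham in hippocampus and above it in cortex, and hippocampus sham had the highest level of the 4. Of the 20 other interferon genes looked up, 15 had no UMI in any cell, and all 20 together had 417.

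In 3 of the 4 libraries a small group of microglia-like cells held most of the Ifnb1 UMIs of that class. In hippocampus DOCA-salt 149 of 2357 microglia-like cells had at least 10 Ifnb1 UMIs and held 64.1% of those UMIs, against 198 of 2152 cells and 56.8% in hippocampus sham. In cortex DOCA-salt 134 of 2204 cells held 64.6%, against 77 of 2431 cells and 43.0% in cortex sham. The count of such cells followed the class level in both tissues. With every cell thinned to 2000 UMIs, 20.7% of microglia-like cells (19.02 to 22.43) had an Ifnb1 UMI in hippocampus DOCA-salt, against 34.3% (32.2 to 36.4) in hippocampus sham, and 18.9% (17.3 to 20.7) in cortex DOCA-salt, against 17.5% (15.9 to 19.1) in cortex sham. Unthinned, the shares were 31.7%, 45.5%, 26.8% and 27.7%. The cortex shares of cells overlapped within counting error although the levels did not, and the mean number of UMIs per positive cortex cell was 3.28 in DOCA-salt and 2.44 in sham, thinned.

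Cells with Ifnb1 more often carried some of the response genes. In hippocampus DOCA-salt, Cxcl10 was found in 65.6% of thinned microglia-like cells with an Ifnb1 UMI and in 26.7% of those without. The same shares were 75.8% and 37.1% in hippocampus sham, 71.8% and 27.6% in cortex DOCA-salt, and 72.7% and 34.2% in cortex sham. Ifit1, which binds viral RNA that lacks host cap marks, was found in 22.2% to 33.5% of cells with Ifnb1 and in 2.79% to 10.3% of those without. Bst2, encoding tetherin, which holds budding viruses to the cell, showed no such split: its share was 14.0% to 20.4% with Ifnb1 and 17.01% to 19.7% without. Lgals3bp and Irf9, a subunit of the interferon-activated complex, also had similar shares in both sets of cells. Isg15 was found in 64.3% to 75.8% of cells with Ifnb1 and in 18.9% to 37.8% of those without.

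Outside microglia, Ifnb1 was low in the large classes. In astrocyte-like and oligodendrocyte-like cells it stood at 3.89% to 5.13% of the microglial level, where the microglial transcript Csf1r stood at 2.89% to 4.404%. In endothelial-like cells it had 12.97 to 23.9 CPM and was found in 1.90% to 5.51% of thinned cells. How much of these levels is free RNA of microglia was not tested. Ependymal-like cells of hippocampus stood higher, at 41.7 CPM (26.7 to 62.01) on 24 UMIs in DOCA-salt and 60.8 CPM (43.3 to 83.1) on 39 UMIs in sham. Isg15 differed in its proportion to Cxcl10: endothelial-like cells had 6.51 to 15.3 Isg15 UMIs for each Cxcl10 UMI, against 0.445 to 0.660 in microglia-like cells of the same libraries. In astrocyte-like cells Isg15 had 0.377 to 0.811 UMIs per Cxcl10 UMI, close to the microglial ratio.

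**Figure D2:**
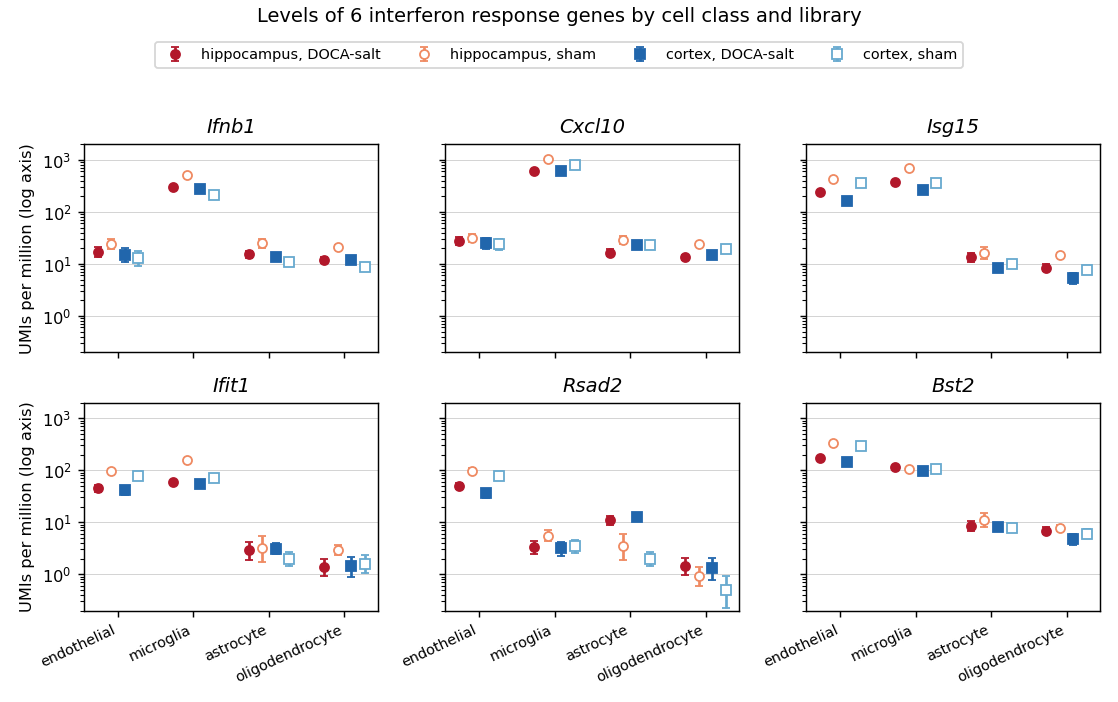
Levels (CPM, UMIs scaled to the total of the class, log axis) of 6 interferon response genes in 4 cell classes, with DOCA-salt libraries as filled and sham libraries as open symbols; bars are 95% intervals of counting error. Ifnb1 and Cxcl10 stand at 209 to 1038 CPM in microglia-like cells and below 32 CPM elsewhere, whereas Rsad2 and Bst2 are highest in endothelial-like cells.

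In endothelial-like cells the interferon response genes were lower in the DOCA-salt library of both tissues. In hippocampus 15 of 37 members were at least 1.5-fold lower in DOCA-salt and 0 at least 1.5-fold higher; over the 11701 genes with at least 20 UMIs, 4.86% were that much lower and 9.45% that much higher. In cortex 19 of 37 were at least 1.5-fold lower and 0 higher, against 4.94% and 7.92% of 11264 genes. The median log2 ratio of the members was -0.51 in hippocampus and -0.60 in cortex, beside 0.04 and 0.03 over all genes. The list was chosen with earlier results of these data known, so these comparisons with all genes are descriptive. Members below 1 numbered 34 in each tissue, and the counting interval lay wholly below 1 for 25 in hippocampus and 21 in cortex. The genes past the fold were partly shared: 12 of the 15 in hippocampus and 12 of the 19 in cortex were the same, namely Bst2, Cmpk2, Ifit1, Ifit3, Ifit3b, Irf7, Isg15, Oasl1, Oasl2, Rsad2, Rtp4 and Xaf1. The share of all genes lower in both tissues was not counted, so this overlap has no background beside it. Of these 12, 11 had a promoter window and 6 a response-element match, beside 15 of the 29 members with a window.

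**Figure D3:**
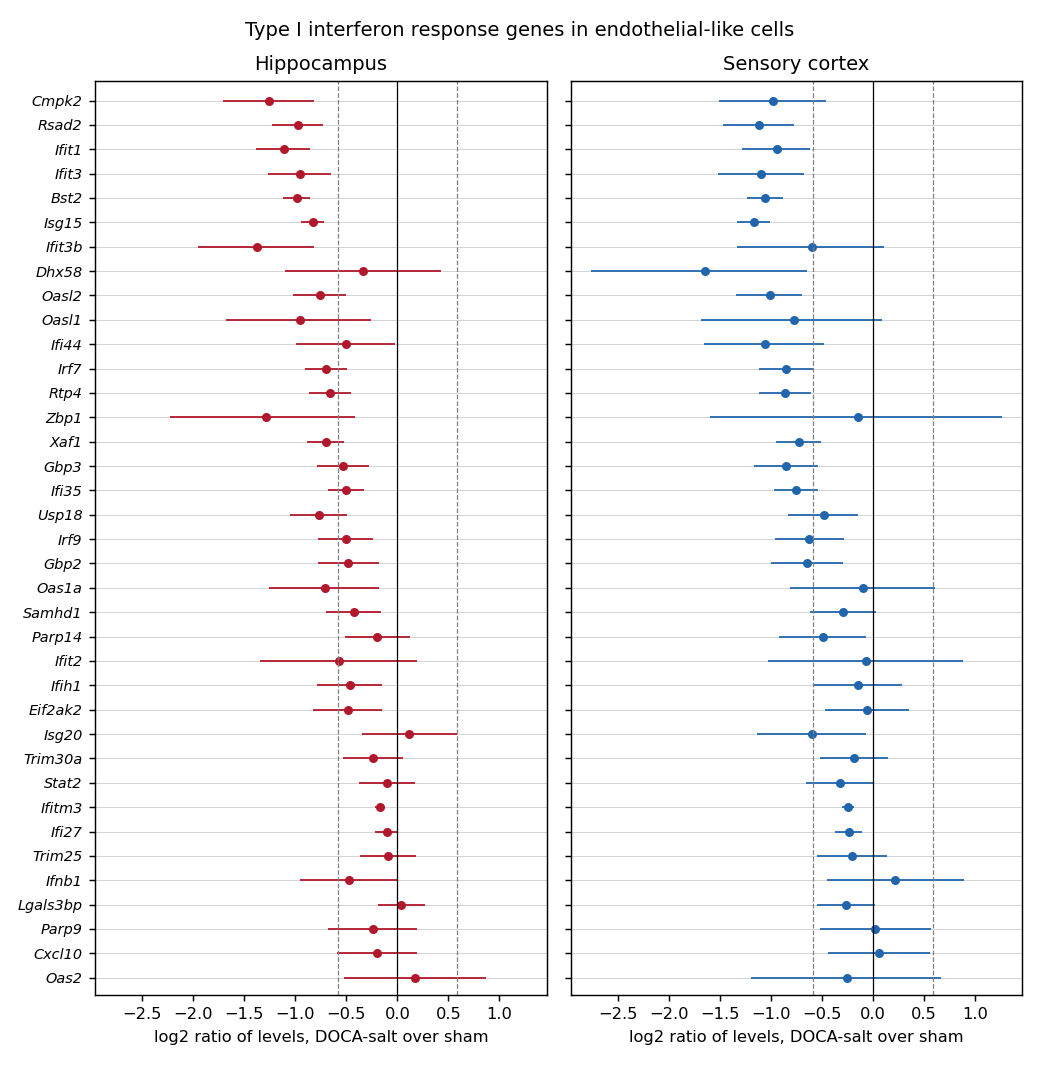
Log2 ratio of levels, DOCA-salt over sham, of the 37 interferon response genes in endothelial-like cells of hippocampus (left) and sensory cortex (right); lines are 95% intervals of counting error and dashed lines mark 1.5-fold. Points lie to the left of 0 for 34 genes in each tissue, and those of Ifitm3 and Ifi27 lie close to 0.

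Among the effectors, the IFIT genes, whose proteins bind foreign RNA, were low together. Ifit1 had 44.7 CPM in hippocampus DOCA-salt and 96.9 in hippocampus sham, a ratio of 0.461 (0.384 to 0.553), and 41.2 CPM in cortex DOCA-salt and 79.2 in cortex sham, a ratio of 0.520 (0.412 to 0.654). Ifit3 stood at 0.515 (0.415 to 0.637) and 0.468 (0.348 to 0.624) times the sham level. Ifit3b stood at 0.384 and 0.659, with an interval that reached 1.07 in cortex. Part of the Ifit3 sequence (14.6% of the 60-base words of its 3′ end) also occurs in Ifit3b, so reads may be split between them. Ifit2 had 19 to 34 UMIs per library, too few to place it: 0.673 (0.393 to 1.14) in hippocampus and 0.955 (0.489 to 1.85) in cortex.

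Isg15, a ubiquitin-like protein that is joined to other proteins, and Usp18, the protease that removes it and damps receptor signalling, were both lower. Isg15 had 239.5 CPM in hippocampus DOCA-salt and 426 in hippocampus sham, a ratio of 0.562 (0.518 to 0.609). In cortex it had 163 CPM in DOCA-salt and 367 in sham, a ratio of 0.444 (0.397 to 0.497). The cortex ratio lay below the hippocampus ratio, with intervals that did not meet, yet a difference between single libraries cannot be assigned to tissue. Usp18 stood at 0.587 (0.483 to 0.711) and 0.715 (0.563 to 0.905) times sham.

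Rsad2, encoding viperin, which makes a chain-terminating nucleotide, and its neighbour Cmpk2, a nucleotide kinase gene, were among the lowest. Rsad2 had 49.9 CPM in hippocampus DOCA-salt and 98.3 in hippocampus sham, and 36.4 CPM in cortex DOCA-salt and 78.8 in cortex sham, with ratios of 0.508 (0.425 to 0.605) and 0.462 (0.361 to 0.586). Cmpk2 stood at 0.418 (0.306 to 0.567) and 0.509 (0.351 to 0.728). Bst2 had 169 CPM in hippocampus DOCA-salt, against 335 in hippocampus sham, and 143 CPM in cortex DOCA-salt, against 298 in cortex sham. Its ratios were 0.504 (0.458 to 0.554) and 0.480 (0.425 to 0.541), among the most precise in the list. These 3 genes thus stood at about the same ratio in hippocampus and cortex.

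The oligoadenylate synthetase family, of which several but not all members activate RNA decay, divided by member. Oasl2 stood at 0.590 (0.492 to 0.707) in hippocampus and 0.496 (0.395 to 0.619) in cortex, and Oasl1, which represses Irf7 translation, at 0.515 and 0.585 on 18 to 46 UMIs. Oas1a stood at 0.610 (0.419 to 0.883) in hippocampus and 0.935 (0.570 to 1.53) in cortex, and shares 60.3% of the words of its 3′ end with Oas1g. Oas2 showed no direction, at 1.12 (0.697 to 1.83) and 0.840 (0.437 to 1.59). Ifi44, an effector found mainly in endothelial-like cells (70.8% of its UMIs), stood at 0.703 (0.501 to 0.985) and 0.481 (0.318 to 0.716).

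Ifitm3, the member with the highest endothelial level, differed little, as did Ifi27 and Lgals3bp. Ifitm3 had 1521 CPM in hippocampus DOCA-salt and 1714 in hippocampus sham, and 1409 CPM in cortex DOCA-salt and 1667 in cortex sham, with ratios of 0.888 (0.857 to 0.920) and 0.845 (0.810 to 0.882). Ifi27 stood at 0.930 (0.860 to 1.01) and 0.847 (0.771 to 0.931), and Lgals3bp at 1.02 (0.874 to 1.20) and 0.834 (0.685 to 1.01). The intervals of these 3 genes exclude the 1.5-fold difference seen for Isg15 or Bst2. Samhd1, a gene whose product depletes nucleotides, stood at 0.744 and 0.817, and Eif2ak2, encoding the RNA-activated kinase PKR, at 0.713 and 0.961.

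Among the transcription factors, Irf7 had the lowest ratio and Stat2 the highest in both tissues. Irf7, which amplifies interferon production, had 80.6 CPM in hippocampus DOCA-salt and 131 in hippocampus sham, and 67.7 CPM in cortex DOCA-salt and 122 in cortex sham, with ratios of 0.614 (0.532 to 0.709) and 0.554 (0.462 to 0.663). Irf9 stood at 0.704 (0.583 to 0.850) and 0.649 (0.513 to 0.819), and its partner Stat2 at 0.934 (0.773 to 1.13) and 0.800 (0.634 to 1.01). Of the RNA sensors, Ifih1, encoding MDA5, stood at 0.723 (0.578 to 0.904) and 0.904 (0.670 to 1.22), and Dhx58, encoding LGP2, at 0.792 (0.467 to 1.34) and 0.320 (0.148 to 0.639). Trim25, a ligase that activates the sensor RIG-I, stood at 0.938 and 0.868, with both intervals across 1. Zbp1, a sensor of left-handed nucleic acid, had 9 to 34 UMIs per library and stood at 0.409 (0.214 to 0.752) and 0.904 (0.331 to 2.40). Irf7 overlaps Phrf1 on the opposite strand and Irf9 overlaps Rnf31, and the counting strand is not given in the sources used here.

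Regulators and guanylate-binding proteins were also on the low side. Xaf1 stood at 0.614 (0.541 to 0.695) and 0.603 (0.516 to 0.704), and Rtp4, a chaperone that binds RNA and antagonises viruses, at 0.634 (0.550 to 0.730) and 0.550 (0.460 to 0.656). Ifi35 stood at 0.705 (0.625 to 0.796) and 0.593 (0.509 to 0.689). Gbp2 and Gbp3, large GTPases that attack vacuoles of intracellular pathogens, stood at 0.716 and 0.692 in hippocampus and at 0.639 and 0.555 in cortex. Parp9, Parp14 and Trim30a, at 0.713 to 1.02, showed no difference that reached 1.5-fold. The chemokine Cxcl10 stood at 0.870 (0.664 to 1.14) and 1.04 (0.738 to 1.47), on levels of 24.0 to 31.7 CPM, close to the 16.5 to 28.7 CPM of astrocyte-like cells. Isg20, an exonuclease gene, showed no direction in hippocampus, at 1.08 (0.786 to 1.49), and was lower in cortex, at 0.661 (0.454 to 0.952).

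The difference was spread over many endothelial-like cells. With cells thinned to 2000 UMIs, 39.7% (36.4 to 43.2) had at least 5 members with a UMI in hippocampus DOCA-salt, against 62.2% (58.4 to 65.8) in hippocampus sham. In cortex the shares were 33.0% (29.1 to 37.0) in DOCA-salt and 55.3% (51.1 to 59.4) in sham. Unthinned, they were 65.9%, 77.9%, 63.7% and 77.6%, in the same order of libraries, and thinning left out 86 to 150 cells per library. The median cell had 6 member UMIs in hippocampus DOCA-salt and 9 in hippocampus sham, and 5 in cortex DOCA-salt and 8 in cortex sham. The 10% of cells richest in member UMIs held 23.7% to 24.98% of them in the 4 libraries. Median endothelial depth was close, at 3914 UMIs in hippocampus DOCA-salt and 3628 in hippocampus sham, and 3813 in cortex DOCA-salt and 3868 in cortex sham. Endothelial markers summed to a median of 225 per 10000 UMIs in hippocampus DOCA-salt, 231 in hippocampus sham, 213 in cortex DOCA-salt and 223 in cortex sham. Microglial markers in the same cells were at 26.6, 30.5, 26.9 and 32.2, somewhat lower in DOCA-salt.

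**Figure D4:**
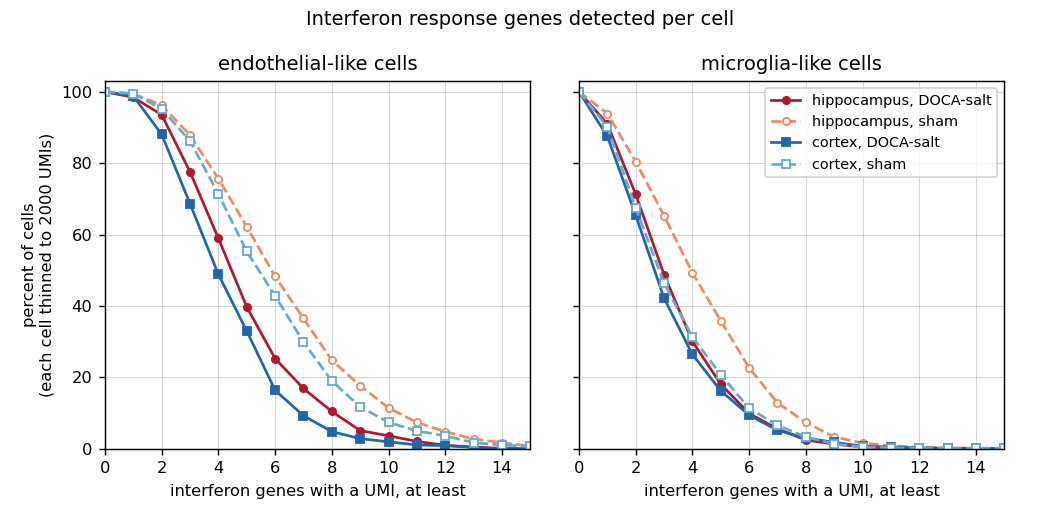
Percent of endothelial-like (left) and microglia-like (right) cells, each thinned to 2000 UMIs, that hold a UMI of at least the given number of interferon response genes; solid lines are DOCA-salt and dashed lines sham libraries. At 5 genes the endothelial-like curves pass 39.7% and 33.0% in DOCA-salt, against 62.2% and 55.3% in sham, while among microglia-like cells hippocampus sham stands alone at 35.9%.

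In microglia-like cells of hippocampus, Ifnb1, Cxcl10, Isg15, Ifih1, Irf7, Oasl1, Rsad2 and the 4 IFIT genes were at least 1.5-fold lower in DOCA-salt, and the middle of the list was near the sham level. In hippocampus 11 of 35 measured members were at least 1.5-fold lower and 1 at least 1.5-fold higher, against 6.11% and 6.03% of 13888 genes. In cortex 3 were lower and 2 higher, against 3.39% and 8.08% of 13905 genes. A count of 3 is near that background. The median log2 ratio was -0.14 in hippocampus and -0.10 in cortex, so the middle of the list was close to 0 in both. Oas2 and Ifi44 had under 20 UMIs per tissue in microglia, at 2 to 7 per library.

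**Figure D5:**
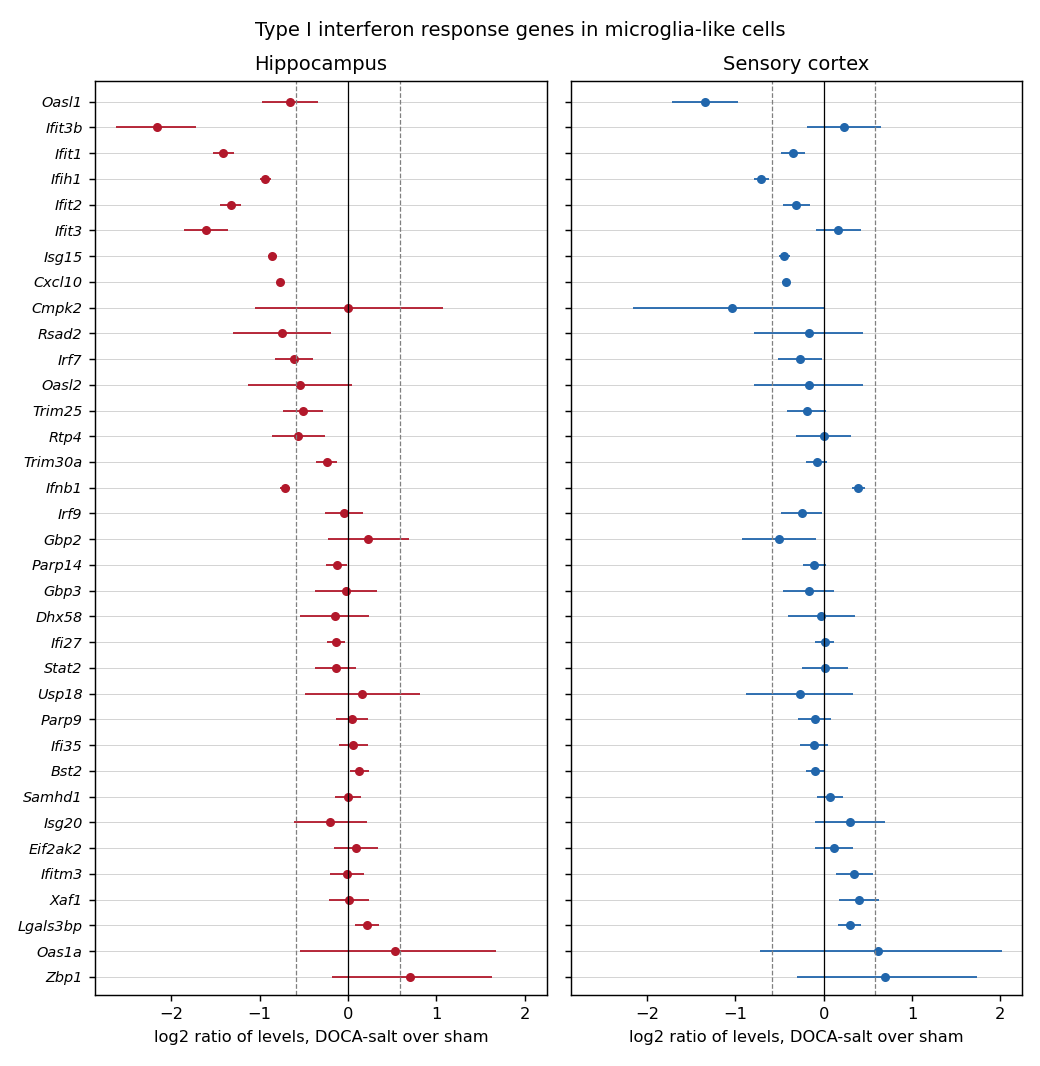
Log2 ratio of levels, DOCA-salt over sham, of the 35 interferon response genes with at least 20 UMIs in microglia-like cells of hippocampus (left) and sensory cortex (right); lines are 95% intervals of counting error and dashed lines mark 1.5-fold. Ifit3b, Ifit3, Ifit1 and Ifit2 lie farthest left in hippocampus and near or closer to 0 in cortex, and Ifnb1 changes sides.

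The IFIT genes had the largest hippocampal differences. Ifit1 had 58.9 CPM in hippocampus DOCA-salt and 157 in hippocampus sham, a ratio of 0.376 (0.347 to 0.408), and 54.8 CPM in cortex DOCA-salt and 69.6 in cortex sham, a ratio of 0.787 (0.715 to 0.866). Ifit2 had 59.4 CPM and 149 CPM in hippocampus, a ratio of 0.399 (0.367 to 0.432), and 44.9 CPM and 55.6 CPM in cortex, a ratio of 0.807 (0.726 to 0.898), DOCA-salt before sham. Ifit3 stood at 0.328 (0.275 to 0.389) in hippocampus and 1.12 (0.939 to 1.34) in cortex, and Ifit3b at 0.223 (0.161 to 0.303) and 1.17 (0.877 to 1.57). For all 4 genes the hippocampus sham library was the high value and the other 3 libraries lay near each other. Sensing and secreted members followed in part. Isg15 had 378 CPM in hippocampus DOCA-salt and 684 in hippocampus sham, a ratio of 0.552 (0.533 to 0.571), and 266 CPM in cortex DOCA-salt and 363 in cortex sham, a ratio of 0.735 (0.704 to 0.766).

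Cxcl10 had 608 CPM in hippocampus DOCA-salt and 1038 in hippocampus sham, a ratio of 0.586 (0.571 to 0.603), and 598 CPM in cortex DOCA-salt and 804 in cortex sham, a ratio of 0.744 (0.723 to 0.765). It overlaps Art3 on the opposite strand. Ifih1 was past the fold in both tissues, with 205 CPM and 393 CPM in hippocampus, a ratio of 0.523 (0.499 to 0.547), and 144 CPM and 234 CPM in cortex, a ratio of 0.614 (0.580 to 0.649), DOCA-salt before sham. Microglia-like cells held 82.5% of all Ifih1 UMIs, as they did 83.8% of those of Cxcl10. Oasl1 was lower in both, at 0.635 (0.508 to 0.791) and 0.396 (0.305 to 0.509). Irf7 stood at 0.654 (0.563 to 0.760) in hippocampus and 0.833 (0.701 to 0.988) in cortex.

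The other members differed less or had few UMIs. Bst2 had 115 CPM in hippocampus DOCA-salt and 106 in hippocampus sham, and 97.9 CPM in cortex DOCA-salt and 105 in cortex sham, with ratios of 1.09 (1.01 to 1.17) and 0.937 (0.869 to 1.01), so it was near equal in microglia although it stood at 0.504 and 0.480 in endothelial-like cells. Lgals3bp was slightly higher, at 1.16 (1.06 to 1.27) and 1.23 (1.12 to 1.34). Stat2, Irf9, Ifi35, Parp9, Samhd1 and Eif2ak2 lay between 0.841 and 1.09 in both tissues. Zbp1 was 1.62-fold higher in both on 15 to 35 UMIs per library, with intervals that included 1, and Oas1a was past the fold in cortex on 13 UMIs in DOCA-salt and 9 in sham. The third gene past the fold downward in cortex was Cmpk2, on 12 UMIs in DOCA-salt and 26 in sham. Rsad2, at 36.4 to 98.3 CPM in endothelial-like cells, was scarce in microglia-like cells, at 43 to 66 UMIs per library. It was past the fold downward in hippocampus, with 3.32 CPM in DOCA-salt and 5.57 in sham, a ratio of 0.596 (0.404 to 0.874), and stood at 0.892 (0.581 to 1.37) in cortex.

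Microglia formed clusters that the libraries filled unequally. Cluster 17 held 62.3% of microglia-like cells in hippocampus DOCA-salt and 73.2% in hippocampus sham, and 27.4% in cortex DOCA-salt and 39.8% in cortex sham, and cluster 19 held 32.2%, 20.9%, 66.7% and 54.9%, in the same order. Within cluster 17, Ifnb1 stood at 0.528 in hippocampus and 1.24 in cortex, and within cluster 19 at 0.715 and 1.38. Ifit1 in hippocampus stood at 0.353 and 0.400 in them, and Isg15 at 0.524 and 0.557. Of 9 genes compared this way in hippocampus, 8 stood below 1 in both clusters, and the other was Oasl1, at 0.594 and 1.09. Astrocyte markers in microglia-like cells differed as well, at 2722 CPM in hippocampus DOCA-salt and 451 in hippocampus sham, and 3239 CPM in cortex DOCA-salt and 1379 in cortex sham, and their part in the results was not tested.

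Astrocyte-like cells had few member UMIs, and most members were near the sham level. In hippocampus 4 of 31 measured members were at least 1.5-fold lower and 2 higher, against 4.98% and 7.69% of 13320 genes. In cortex 0 of 32 were lower and 7 higher, against 3.09% and 8.95% of 15301 genes; the 7 became 4 with classes taken from clusters or with doublets kept. Rsad2 had the largest ratios past the fold: it had 11.0 CPM in hippocampus DOCA-salt and 3.49 in hippocampus sham, a ratio of 3.16 (1.79 to 5.98), and 12.9 CPM in cortex DOCA-salt and 1.99 in cortex sham, a ratio of 6.47 (4.67 to 9.16). The direction was opposite to that in endothelial-like cells of the same libraries, whose Rsad2 level was lower in DOCA-salt. Thinned to 2000 UMIs, 1.71% (1.06 to 2.60) of astrocyte-like cells had an Rsad2 UMI in hippocampus DOCA-salt, against 0.971% (0.357 to 2.10) in hippocampus sham, and 2.17% (1.71 to 2.73) in cortex DOCA-salt, against 0.483% (0.264 to 0.808) in cortex sham. The hippocampal shares overlapped and the cortical shares did not. In oligodendrocyte-like cells Rsad2 was also past the fold upward, on 9 to 29 UMIs per library, at 1.56 (0.887 to 2.76) in hippocampus and 2.60 (1.12 to 6.52) in cortex, and at most 0.497% of cells had a UMI of it.

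Trim30a, which limits inflammatory signalling, was 2.07-fold higher in cortex astrocyte-like cells (1.61 to 2.68; 8.91 CPM in DOCA-salt and 4.31 in sham), and Cmpk2 was 1.59-fold higher (1.14 to 2.25). Ifnb1 and Cxcl10 stood at 0.618 and 0.574 in hippocampus, close to their microglial ratios of 0.609 and 0.586, on levels of 2.71% to 4.96% of the microglial ones. The other members past the fold in hippocampus were Oasl2 and Gbp3 downward and Isg20 upward, each on 24 UMIs or fewer per library. In oligodendrocyte-like cells of hippocampus Ifnb1 and Cxcl10 stood at 0.563 and 0.559. There, 7 of 32 members were at least 1.5-fold lower and 4 higher in hippocampus, against 3.96% and 9.98% of 14427 genes, and 0 of 28 lower and 5 higher in cortex, against 3.72% and 9.17% of 13668 genes. With a minimum of 50 UMIs, 1 of 19 was higher in cortex. Xaf1, at 110 CPM in hippocampus DOCA-salt and 93.6 in hippocampus sham and at 105 CPM in cortex DOCA-salt and 85.6 in cortex sham, was close to equal (1.17 and 1.23), as was Ifi27 (0.955 and 1.13). Trim30a was 2.01-fold higher in cortex (1.44 to 2.84). A cluster held 2.36% of oligodendrocyte-like cells of hippocampus DOCA-salt and 69.1% of those of hippocampus sham, and the median log2 ratio in hippocampus was -0.10 with it and -0.07 without it.

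Pericyte-like cells gave a similar picture, and they also held endothelial transcripts. In hippocampus 11 of 32 members were at least 1.5-fold lower and 0 higher, against 8.53% and 9.29% of 10118 genes, and in cortex 17 of 30 lower and 1 higher, against 8.97% and 9.46% of 9283 genes. Bst2 stood at 0.644 (0.524 to 0.791) and 0.410 (0.307 to 0.546), Rsad2 at 0.364 (0.215 to 0.599) and 0.314 (0.157 to 0.599), and Isg15 at 0.587 and 0.485. Endothelial markers summed to a median of 67.7 per 10000 UMIs in hippocampus DOCA-salt and 99.0 in hippocampus sham, and to 46.9 in cortex DOCA-salt and 65.4 in cortex sham. The list and the endothelial markers were thus both lower in DOCA-salt, and how much of the list's difference came from endothelial RNA was not tested.

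Border-macrophage-like cells, on 58 to 112 cells per library, differed in opposite directions. In hippocampus 4 of 31 members were at least 1.5-fold lower and 8 higher, against 16.6% and 9.87% of 7185 genes. In cortex 10 of 25 were lower and 1 higher, against 11.8% and 13.9% of 5317 genes. Ifitm3 was 1.54-fold higher in hippocampus (1.33 to 1.79; 712 CPM in DOCA-salt and 461 in sham), and Isg15 stood at 0.216 in cortex (0.130 to 0.347; 54.4 CPM in DOCA-salt and 252 in sham). In cortex the 10% of thinned cells richest in member UMIs held 34.3% of them in DOCA-salt and 45.4% in sham, while 22.2% of cells in DOCA-salt and 20.8% in sham had at least 5 members with a UMI. Cxcl10, Ifit1 and Ifit2 were lower in both tissues.

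The hippocampus sham and cortex sham libraries also differed, and with 1 library each this cannot be assigned to tissue. Between the sham libraries, 10 of 35 members in microglia-like cells were at least 1.5-fold higher in hippocampus and 0 lower, against 9.61% and 6.94% of 13781 genes. Ifnb1 was 2.42-fold (2.32 to 2.53) higher in hippocampus sham, Ifit2 2.68-fold (2.46 to 2.92) and Isg15 1.89-fold (1.82 to 1.95). In endothelial-like cells 4 of 37 were higher and 0 lower, against 6.17% and 8.46% of 11338 genes, with a median log2 ratio of 0.17. In astrocyte-like cells 13 of 32 were higher and 0 lower, against 10.7% and 7.88% of 14104 genes. In oligodendrocyte-like cells 8 of 31 were higher and 1 lower, against 4.63% and 7.53% of 14199 genes, and with classes taken from clusters 14 were higher and 2 lower. In border-macrophage-like cells 15 of 29 were lower in hippocampus and 4 higher, against 13.4% and 18.2% of 6277 genes. Few cells weighed on this: the richest thinned cell held 38 member UMIs in hippocampus sham and 74 in cortex sham. The median cell held 4 and 5, and 23.1% and 20.8% of cells had at least 5 members with a UMI. Between the DOCA-salt libraries, 5 of 29 members in oligodendrocyte-like cells were higher in hippocampus and 3 lower, against 4.22% and 6.62% of 13909 genes. In border-macrophage-like cells of the DOCA-salt libraries 8 of 28 were higher in hippocampus and 5 lower, against 10.3% and 13.2% of 6529 genes. The sham libraries are also those of the ratios above and lend them no separate weight.

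Genes around the list were described from 6 further lists of the pathway. These lists share genes: Irf1 is among both the signalling genes and the interferon gamma targets, and Socs1 among both the feedback inhibitors and the interferon gamma targets. Both genes were at least 1.5-fold higher in oligodendrocyte-like cells of both tissues, so the counts of those lists there are not separate. Counts in endothelial-like cells are to be read against the shares over all genes there. These were 4.86% lower and 9.45% higher in hippocampus and 4.94% and 7.92% in cortex. Of interferon genes and receptors, 0 of 6 measured members were past 1.5-fold in endothelial-like cells of either tissue, and of 10 signalling genes 1 was lower and 2 higher in hippocampus and 0 lower and 1 higher in cortex. Of 49 other interferon-stimulated genes with a row, 4 of 34 in hippocampus and 4 of 33 in cortex were lower in endothelial-like cells and 2 and 3 were higher. Their median log2 ratios there were -0.19 in hippocampus and -0.25 in cortex. Ifi27l2a stood there at 0.618 (0.484 to 0.787) and 0.340 (0.241 to 0.473), and Lgals9, encoding a galectin, at 0.666 (0.602 to 0.736) and 0.594 (0.526 to 0.670). Of 17 sensing and induction genes with a row, 0 of 13 were lower and 3 higher in hippocampus, and 1 of 12 lower and 1 higher in cortex. In microglia-like cells Ifi27l2a went the other way, at 1.58 (1.26 to 2.002) and 1.80 (1.41 to 2.30). Of 6 feedback inhibitors, 0 were past the fold in endothelial-like cells. In oligodendrocyte-like cells 2 of 5 measured feedback inhibitors were higher in each tissue and 0 lower, and in astrocyte-like cells 1 of 6. Over all genes, 9.98% were higher and 3.96% lower in oligodendrocyte-like cells of hippocampus, and 9.17% and 3.72% in those of cortex. In astrocyte-like cells the shares were 7.69% and 4.98% in hippocampus and 8.95% and 3.09% in cortex. Socs3, which blocks cytokine receptors of the gp130 family, was 2.96-fold (2.63 to 3.34) and 3.94-fold (3.43 to 4.53) higher in oligodendrocyte-like cells. It was 2.16-fold and 2.04-fold higher in astrocyte-like cells. Of 16 interferon gamma targets measured in endothelial-like cells, 3 were lower and 1 higher in hippocampus, and 4 lower and 0 higher in cortex. In oligodendrocyte-like cells 4 of 12 were higher and 0 lower in hippocampus, and 5 of 10 higher and 1 lower in cortex. In astrocyte-like cells 4 of 11 and 3 of 14 were higher, with 0 lower in both. Of other interferon-stimulated genes, 7 of 35 and 7 of 31 were higher in oligodendrocyte-like cells, with 0 and 1 lower. The counts in astrocyte-like cells were 5 of 27 and 8 of 36 higher, with 0 lower in both.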

How the data were processed

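RNA of single cells was captured with a droplet kit that reads the 3′ end, in 4 libraries, 1 for each tissue and treatment. The deposited matrices hold UMI counts per gene and cell, not normalized, on GRCm38; per the submitters' processing notes the tools included STAR, Subread, fastp and Seurat, with no versions, and whether counting used strand is not given in the sources used here. A cell needed 300 or more detected genes and no more than 20% of UMIs from mitochondrial genes, and doublets marked by Scrublet (scanpy 1.11.5, expected rate 0.08) were removed. Each cell received a class where the mean standardized level of that class's markers reached 0.5, led the next class by 0.5 and had at least 3 markers detected. Counts were summed per class and library and divided by the class total. Ratios carry exact conditional binomial intervals, levels exact Poisson intervals and shares of cells exact Clopper-Pearson intervals, computed with scipy 1.17.1. A gene was counted as past the fold at 1.5-fold or more with at least 20 UMIs in both libraries together. With 1 library per group a difference between 2 libraries has no test, a fit of tissue and treatment over the 4 libraries together was not run, and intervals cover counting error only, not the spread between mice. In summed cells, fewer expressing cells and less RNA per cell cannot be told apart, apart from the shares of cells given. The ratio code was tested on simulated counts before use. Cells were also grouped by Leiden clustering (leidenalg 0.10.2, 2000 variable genes, 30 components, resolution 1.0) without 163 interferon genes, giving 31 clusters. Alternatives covered scaling (edgeR 4.0.16 TMM, median of ratios), count minimum, classes, doublets, cell filter, weighting, thinning and removal of the highest cells. Gene positions and overlaps come from GENCODE vM21 on GRCm38. Members were named by levels: in endothelial-like and microglia-like cells all could be named, in other classes the 6 with an interval bound farthest from 1 and those against the list; any other gene named was chosen after its values were seen. The members and lists were chosen with earlier results of these data known. Mx1 and Mx2 are not analysed here.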

Additional observations from a re-analysis of the deposited data

Results flagged for a closer look

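Some ratios of DOCA-salt over sham lay on opposite sides of 1 in hippocampus and cortex with intervals that excluded 1 in both; the difference between the tissues was not tested. For Ifnb1 the ratio was 0.609 in hippocampus and 1.31 in cortex in microglia-like cells, 0.618 and 1.27 in astrocyte-like cells, 0.563 and 1.31 in oligodendrocyte-like cells and 0.546 and 4.05 in pericyte-like cells. The pericyte value in cortex rests on 25 UMIs in DOCA-salt and 4 in sham. Microglia-like cells held most Ifnb1 UMIs, and the other classes carried 3.89% to 5.13% of the microglial level in the 2 glial classes. For Bst2 in border-macrophage-like cells the ratio was 1.36 in hippocampus and 0.723 in cortex, on 516 UMIs in hippocampus DOCA-salt and 357 in hippocampus sham, and on 231 in cortex DOCA-salt and 240 in cortex sham.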

How the results depend on the processing

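In endothelial-like cells the median log2 ratio ranged from -0.62 to -0.49 in hippocampus and from -0.66 to -0.51 in cortex over 10 alternatives, with 15 to 20 and 16 to 19 members at least 1.5-fold lower. In microglia-like cells the medians ranged from -0.22 to -0.12 in hippocampus and from -0.15 to -0.05 in cortex over 12 alternatives, of which those within single clusters were chosen after seeing the data, as was leaving out the oligodendrocyte cluster. Within cluster 17 the count of lower members in cortex microglia-like cells was 5, against 3 over all clusters; the cause was not tested. Counts of members past the fold in glia moved more, and the cause was not tested. In hippocampal astrocyte-like cells 4 were lower and 2 higher, against 1 and 3 with classes from clusters, 7 and 1 with equal weight per cell, 2 and 1 at a minimum of 50 UMIs and 4 and 4 when thinned. In cortex astrocyte-like cells 7 were higher, against 4 with classes from clusters or with doublets kept. In oligodendrocyte-like cells 7 were lower and 4 higher in hippocampus, against 7 and 2 under either scaling and 4 and 2 when thinned, and 5 were higher in cortex, against 1 at a minimum of 50 UMIs. Between the sham libraries 8 were higher in hippocampus in oligodendrocyte-like cells, against 14 with classes from clusters. In cortex microglia-like cells 2 were higher, against 0 to 4 under the alternatives, and in hippocampus 1, against 0 to 3. The hippocampal astrocyte-like median ranged from -0.16 to 0.15 and so has no settled sign. Among members with 100 or more UMIs, those at least 1.5-fold apart with an interval excluding 1 changed sign in 2 cases. Oasl1 in hippocampal microglia-like cells stood at 0.13 (log2) within cluster 19. Ifit1 in cortex astrocyte-like cells stood at -0.088 (log2) without the 1% of cells highest in members. Sign changes of other members were not counted. Ifit2 in cortex microglia-like cells, for instance, stood at -0.31 (log2) over all clusters and at 0.041 within cluster 19. A tally covered the values under alternatives for single members, class sums, shares of cells, and counts of lower members in astrocyte-like and oligodendrocyte-like cells. In it 1672 stayed the same and 148 moved. The same meant within counting error, but for the counts of lower members it meant equal or within 1.5-fold. Each group is 1 library, so none could be left out, and a fit paired by tissue was not run. Depth limits the members with few UMIs: Oas2 and Ifi44 in microglia-like cells could not be placed.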

Other observations

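Erythroid-like cells, 56 to 159 per library, were not part of the comparisons above. The exonuclease gene Isg20 was the leading member there in both DOCA-salt libraries. It had 275 CPM in hippocampus DOCA-salt and 178 in hippocampus sham, a ratio of 1.55 (1.25 to 1.94), and 391 CPM in cortex DOCA-salt and 229.8 in cortex sham, a ratio of 1.70 (1.32 to 2.21). Rsad2 had 79.3 CPM in hippocampus DOCA-salt and 38.2 in hippocampus sham, and 101.5 CPM in cortex DOCA-salt and 43.7 in cortex sham, with ratios of 2.08 (1.32 to 3.38) and 2.33 (1.32 to 4.24). Both genes were higher in DOCA-salt in each tissue. Ifitm3 went the other way, with 125 CPM in hippocampus DOCA-salt and 446 in hippocampus sham, and 56.9 CPM in cortex DOCA-salt and 372 in cortex sham. Bst2 stood at 0.250 (0.146 to 0.413) and 0.216 (0.054 to 0.643). Xaf1 had 26.4 and 64.6 CPM in hippocampus and 14.85 and 39.1 CPM in cortex, DOCA-salt before sham. The list summed to 840 CPM in hippocampus DOCA-salt and 1705 in hippocampus sham, and 819.5 CPM in cortex DOCA-salt and 1289 in cortex sham. How far RNA of other cells in this class differed between the libraries, and its part in these ratios, was not tested.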
